A study of Mus musculus with 2 samples.

Results

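The genes described here encode proteins that build, transport along or move cilia, and their transcripts were measured in the embryonic mouse neural tube. Members were chosen by name alone, as protein-coding genes of GENCODE release M21 whose symbol starts with Ift or Bbs followed by a digit, or with Tctn, Dnah, Dnai, Dnaaf or Cfap. The rule found 75 genes among the 21474 protein-coding genes of the deposited tables. Of these, 24 belong to the primary cilium class (14 Ift, 8 Bbs and 2 Tctn genes) and 51 to the motile cilium class (30 Cfap, 15 Dnah, 4 Dnaaf and 2 Dnai genes, the latter under their M21 symbols Dnaic1 and Dnaic2). Total RNA was sequenced in 2 libraries of neural tube from B6NCrl embryos of both sexes at 15.5 days, healthy per the labels, with no treatment or engineered allele named. Replicate 1 was a pool of 78 embryos and replicate 2 a pool of 62. The libraries form 1 group, so no comparison between conditions existed, no test was made, and every spread is that between these 2 pools.

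A cilium is a slender projection built on a cytoskeleton of doublet microtubules, the axoneme. Intraflagellar transport (IFT) trains carry building material along it: kinesin-2 moves them to the tip, with the IFT-B complex as the main carrier, and dynein-2 with the IFT-A complex brings them back. The BBSome, a coat complex of Bbs proteins, exports membrane proteins, and the transition zone, to which tectonic proteins such as Tctn1 belong, gates the base. In the developing neural tube, progenitor cells hold a single immotile primary cilium, through which Hedgehog signals act. Motile cilia share this transport machinery and add dynein arms, radial spokes and a central apparatus. In the brain they are carried by ependymal and choroid plexus cells, and ependymal cells form their tufts of cilia mostly after birth.

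Replicate 1 held 34678043 gene counts and replicate 2 held 41355355, of which the members took 36112 and 42338. Levels are given in TPM, a relative transcript abundance that is per length. Marker lists were set beside the tissue label. All 6 neuron, 8 of 8 radial glia and 5 of 6 floor plate markers reached 1 TPM in both libraries. So did 4 of 6 gut epithelium markers, 2 of 10 thymus markers and 63.4% of all protein-coding genes, so passing identifies no tissue. Median levels were 567 and 679 TPM for neuron markers, 42.5 and 55.5 for radial glia markers and 6.87 and 5.50 for all protein-coding genes. Replicate 1 stood apart in markers of other tissues. The 10 thymus markers summed to 484 TPM there and 20.1 in replicate 2, where Cd3g and Foxn1 were listed at 0, and the 6 markers of gut epithelium summed to 609 and 7.55 TPM. Of tissues that carry motile cilia, the choroid plexus list summed to 14.97 and 3.82 TPM over 6 genes. In it, Folr1 (7.16 and 1.40 TPM), Ttr (3.98 and 0.84) and Clic6 (2.85 and 0.41) were higher in replicate 1. Kl gave 0.86 and 0.81 TPM, Kcne2 0.12 and 0.25, and Otx2 0 and 0.11. The airway list had Scgb1a1, Scgb3a2 and Nkx2-1 at 0 in both libraries, with only Bpifa1 high in replicate 1 (42.1 against 0.09 TPM). None of 7 testis germ cell markers reached 1 TPM in either library, and 6 of 8 ependymal markers did so in both. The part of these cells in the members' levels was not tested, and results are therefore given for each library.

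All 24 primary cilium members reached 1 TPM in both libraries, while 26 of the 51 motile cilium members did. Among all protein-coding genes the share at that level was 63.4%, against 100% of the primary and 51.0% of the motile members. At 5 TPM in both libraries the counts were 20 of 24 primary and 9 of 51 motile members, against 50.4% of all protein-coding genes. Of the motile members, 20 stayed under 1 TPM in both libraries and 5 reached it in only 1 library. The median level of the primary class was 18.4 TPM in replicate 1 and 17.8 in replicate 2, above the medians of all protein-coding genes, 6.87 and 5.50. The motile class had medians of 1.09 and 1.54 TPM. On the log2(TPM + 1) scale the primary median exceeded the motile one by 3.22 in replicate 1 and 2.88 in replicate 2 (mean 3.05 ± 0.23, SD, n = 2). The classes overlapped: 13 motile members lay above the lowest primary member in both libraries, and Cfap20, Cfap36, Cfap97 and Cfap298 lay above the primary median in both. Those 4 genes made up 70.9% and 72.9% of the summed TPM of the motile class. In bulk RNA, fewer cells of a type and less RNA per cell cannot be told apart.

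**Figure D1:**
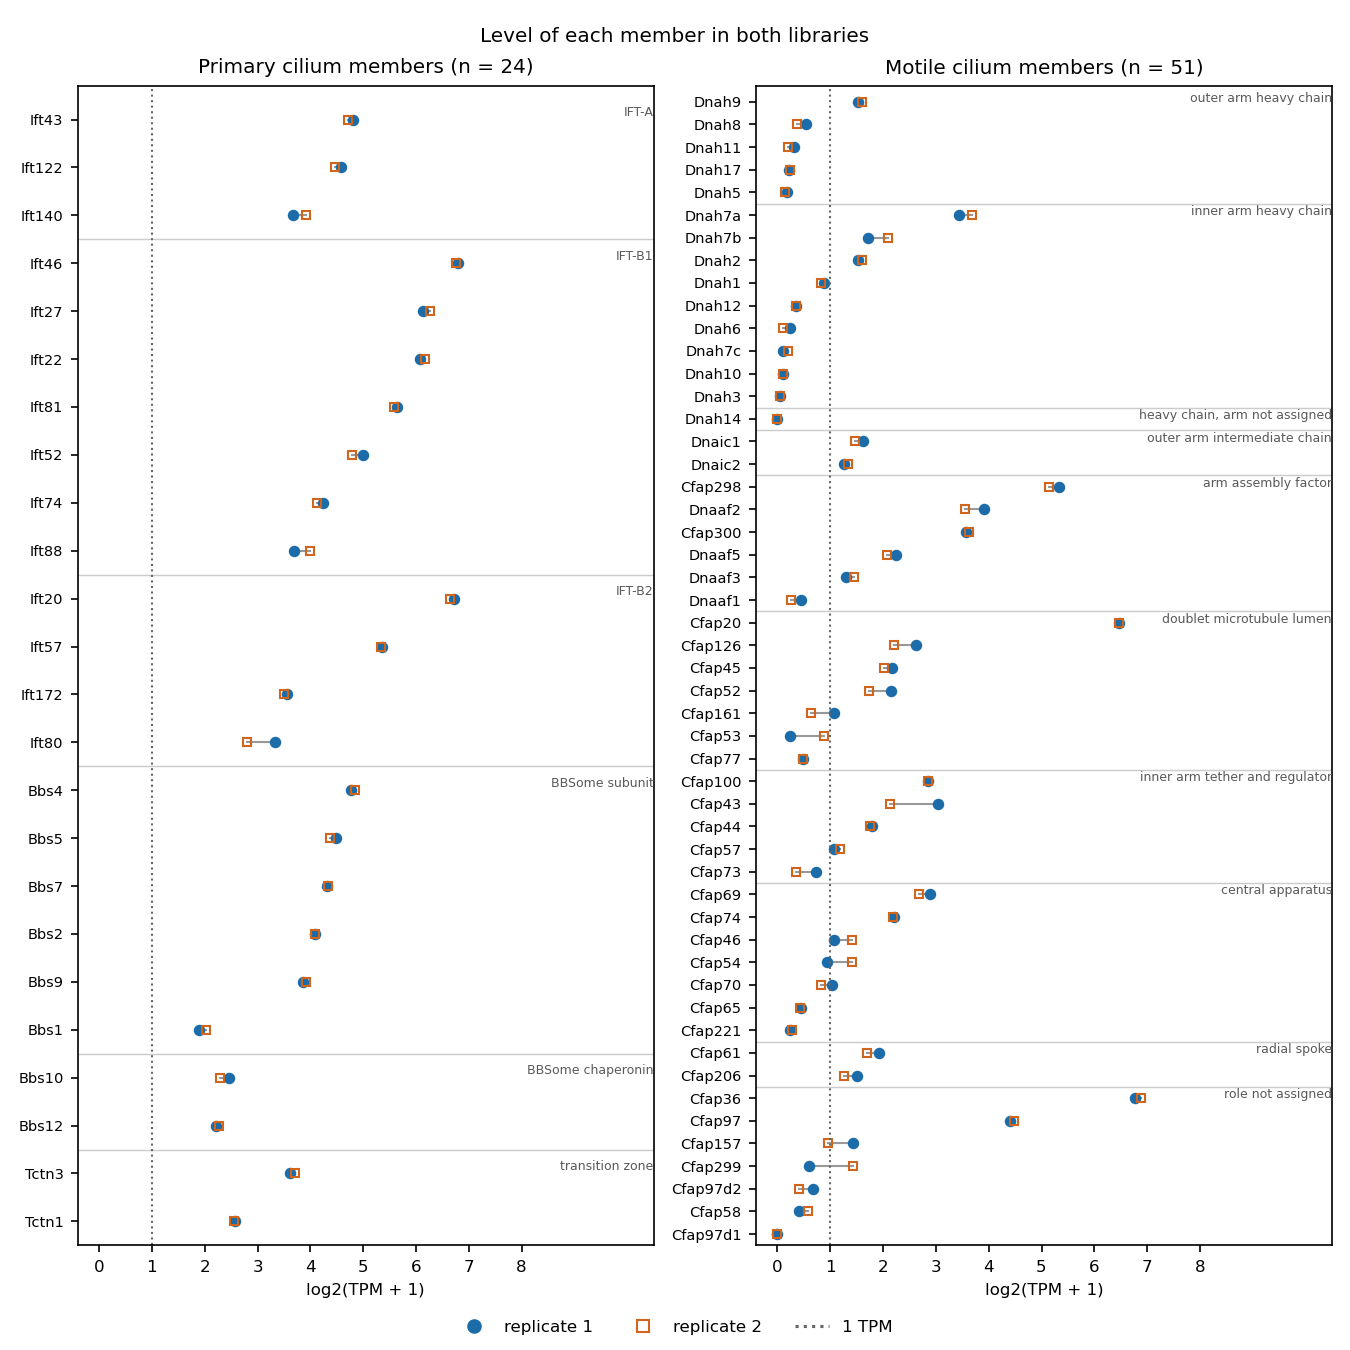
Level of each of the 75 members as log2(TPM + 1), with replicate 1 as filled circles and replicate 2 as open squares, grouped by role; the dotted line marks 1 TPM. All 24 primary cilium members lie to the right of the line, while the motile cilium members spread from 0 to Cfap36 at 109 and 117 TPM.

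Regulatory factor X (RFX) proteins bind a paired motif, the X-box, in promoters of ciliary genes, and the forkhead factor Foxj1 drives the motile programme. Promoters of 300 bases (250 before and 50 after each start) from RefSeq on GRCm38.p6 matched 63 of the 75 members, with 66 promoters. The single RFX site, GTTGCC on either strand, lay in 10 of 21 promoters of primary members (47.6%) and 18 of 45 of motile members (40.0%), against 12.5% of all 32851 promoters. The full X-box was searched as GTTNCC followed after 0 to 3 bases by GGNAAC on either strand, and a match that reads GTTGCC counts as a single site too. It lay in 4 of 21 primary promoters (19.0%) and 1 of 45 motile promoters (2.22%), against 0.804% of all promoters. Median GC content was 57.7% in primary, 56.3% in motile and 52.7% in all promoters. Among the 21263 promoters of protein-coding genes alone it was 56.3%, the same as in the motile class. Of those promoters, 12.6% held the single site and 0.762% the full X-box. The windows below hold every X-box match among the members, each with up to 7 flanking bases, since they are the sequence that members of both classes share. Capitals mark the match, and each window is written 5′ to 3′ on the strand of its gene.
Bbs7, chr3:36613490-36613517 (minus strand): cgccccgGTTGCCTTGGAAACcggccag
Ift57, chr16:49699227-49699253 (plus strand): ccctgcgGTTGCCTGGTAACggtgggg
Tctn3, chr19:40612352-40612378 (minus strand): cccagcgGTTGCCAGGTAACgggaacc
Tctn1, chr5:122264411-122264431 (minus strand): tgtgactGTTGCCCGGGCAAC
Cfap298 nearer, chr16:90934897-90934925 (minus strand): tttgactGTTGCCCCTGGCAACagccact
Cfap298 farther, chr16:90935017-90935044 (minus strand): ggttttgGTTGCCCGGGCAACagctact
The match began 121 bases before the start in Bbs7, 60 in Ift57 and 140 in Tctn3, 69 and 188 in Cfap298, and after the start in Tctn1, at the end of its window. All of these windows but that of Bbs7 overlap an exon annotated in GENCODE M21. The first part of the match reads GTTGCC in each of the 6 windows. All 5 genes were above 1 TPM in both libraries, from Tctn1 at 4.99 and 4.88 TPM to Ift57 at 40.2 and 39.2. A match is a description of the letters only, and binding was not measured.

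**Figure D2:**
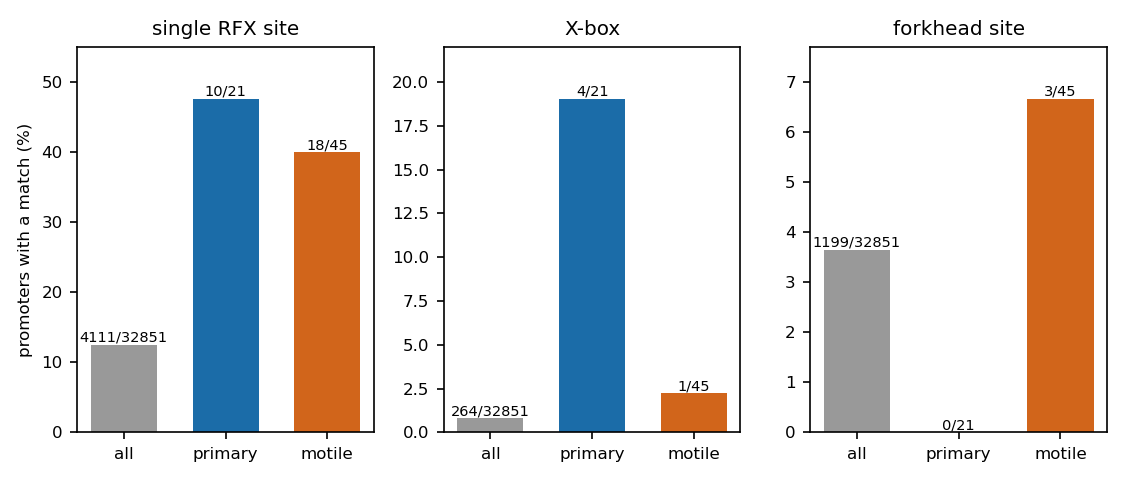
Share of promoters with a match to the single RFX site, the full X-box and the forkhead site, for all RefSeq promoters of 300 bases and for those of primary and motile members; each panel has its own vertical axis from 0 in percent, and the fractions give the counts. The single site was in 47.6% of primary and 40.0% of motile promoters against 12.5% of all.

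The forkhead site, TGTTTAC on either strand, was found in 0 of 21 primary promoters and in 3 of 45 motile ones (6.67%), those of Cfap20, Cfap43 and Dnah17. It was in 3.65% of all promoters and in 3.01% of those of protein-coding genes. Among motile members, the single RFX site lay in 13 of 28 promoters of genes at 1 TPM in both libraries and in 5 of 17 promoters of the others. Genes with the single site included Cfap20 at 87.7 and 87.0 TPM and Dnah10 at 0.07 and 0.08 TPM, so it occurred at both ends of the motile range.

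The Ift genes were the highest family of the primary class, with all 14 members between 6.01 and 109.6 TPM. IFT-B1, the core of the carrier complex, had a median of 48.7 and 46.9 TPM over 7 genes. Ift46, a core subunit, was the highest at 109.6 TPM in replicate 1 and 108 in replicate 2. Ift27 and Ift22, small GTPase-like subunits, stood at 68.9 and 75.6 TPM and at 66.6 and 71.2 TPM. The tubulin-binding pair Ift81 and Ift74 differed in level, with 48.7 and 46.9 TPM for Ift81 and 18 and 16.4 for Ift74. Ift88, a core subunit long used as a model of cilium loss, was the lowest of the group at 11.9 and 14.8 TPM. Neighbours such as Ift27 and Ift22 lay within the spread of the libraries, while Ift46 was above both in each.

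The 4 peripheral IFT-B2 genes ranged from 6.01 to 104.7 TPM, and the 7 IFT-B1 genes from 11.9 to 109.6 TPM. Ift20, which also acts at the Golgi, gave 105 and 98.4 TPM and Ift57 gave 40.2 and 39.2. The large subunit Ift172 gave 10.7 and 10.4 TPM, so that Ift46 was 10.3 ± 0.12 times its level (SD, n = 2). Ift80 was the lowest Ift gene at 9.00 and 6.01 TPM and had the largest difference between libraries in the primary class, 0.51 on the log2 scale. In IFT-A, which returns trains to the base, Ift43 had 26.9 and 25.1 TPM, Ift122 had 22.9 and 21.01, and Ift140 had 11.7 and 14.2. Ift140 and Ift88 were at a ratio of 1.03 ± 0.022 (Ift88 over Ift140, SD, n = 2), which shows no order between them. In protein-coding transcripts the ratio was 0.821 ± 0.092.

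Transcript tables qualified some of these levels. For Ift46, a transcript of 229 bases held 30.6 and 29.8 TPM from 88.3 and 103 expected counts, because a short transcript turns few reads into a high TPM. Its main transcript of 1317 bases held 55.4 and 57.6 TPM from 1497 and 1857 counts. Protein-coding transcripts alone held 27.4 and 28.3 TPM of Ift81 and 7.02 and 7.80 of Ift88. For Ift20, 30.5% and 32.5% of TPM lay in a transcript with a retained intron. Cfap20, by contrast, was listed with a single transcript.

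The Bbs genes were all above 1 TPM and lay between 2.71 and 27.9 TPM. Of the BBSome subunits, Bbs4 was highest (26.4 and 27.9 TPM), followed by Bbs5 (21.5 and 19.8), Bbs7 (18.8 and 19.1), Bbs2 (15.91 and 15.95) and Bbs9 (13.6 and 14.2). In protein-coding transcripts Bbs5 (14.6 and 13.9 TPM) stood behind Bbs7 and Bbs2 (10.9 and 10.1) behind Bbs9. Bbs1, a subunit through which the coat binds its membrane GTPase, was well below the other subunits at 2.71 and 3.09 TPM. The chaperonin-like genes Bbs10 and Bbs12, which help assemble the BBSome, were low as well. Bbs10 had 4.53 and 3.87 TPM and Bbs12 had 3.63 and 3.84, and their ratio of 1.13 ± 0.17 (SD, n = 2) gave no order. The tectonics were modest: Tctn3 gave 11.2 and 12.1 TPM and Tctn1 gave 4.99 and 4.88. The value of Tctn1 is uncertain, since other genes, mainly Hvcn1 on the other strand, overlap 25.5% of its exon bases, and its protein-coding transcripts held 2.88 and 2.71 TPM. Tctn2 is typed as a processed transcript in M21 and so is no member, and it had 15.1 and 16.0 TPM.

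Other genes of the primary cilium, from lists that are not chosen by symbol, were also mostly present. Of 50 such genes, 48 (96.0%) reached 1 TPM in both libraries, against 63.4% of all protein-coding genes. The medians of the 50 genes were 14.1 and 14.5 TPM. All 9 genes of the transport motors passed, led by the kinesin-2 subunits Kif3a (214 and 264 TPM) and Kifap3 (91.7 and 108). The dynein-2 heavy chain Dync2h1 was at 12.7 and 12.9 TPM. Other IFT subunits passed in 9 of 10 genes, other BBSome genes in 5 of 5 and other transition zone genes in 16 of 16, where Ahi1 was the highest at 73.7 and 87.2 TPM. In the ciliary membrane list, 9 of 10 passed. Arl3, a GTPase that unloads lipid-modified cargo, led it at 157 and 171 TPM, and the somatostatin receptor Sstr3 was under the threshold at 0.34 and 0.44.

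**Figure D3:**
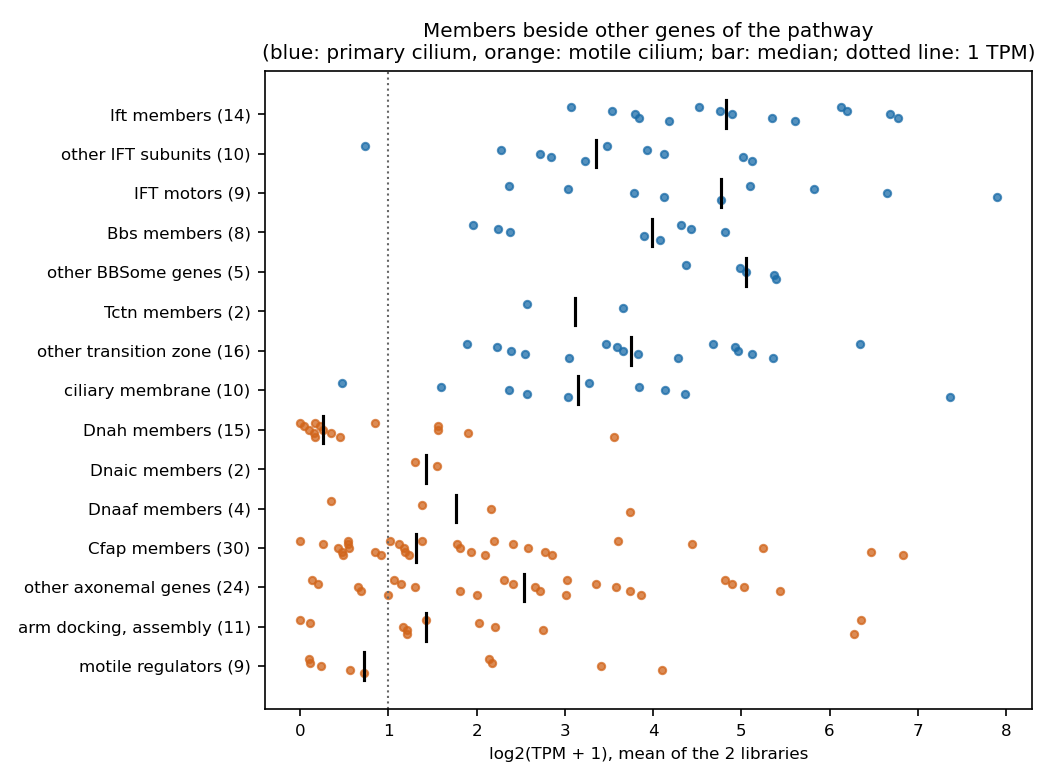
Mean log2(TPM + 1) of the 2 libraries for each member family and for other genes of the same pathways, with the number of genes in parentheses, the median as a black bar and 1 TPM as a dotted line. The Dnah family and the motile regulators have their medians under 1 TPM, and every list drawn in blue has its median above it.

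Dynein heavy chains, the motors of the arms, were the lowest family. Of 15, 4 (26.7%) reached 1 TPM in both libraries, against 63.4% of all protein-coding genes, and 11 were under it in both. Of the outer arm chains, Dnah9 had 1.87 and 2.03 TPM, Dnah11 had 0.25 and 0.15 and Dnah5 had 0.14 and 0.11. Dnah5 and Dnah9 pair in one outer arm, and Dnah5 was at 0.065 ± 0.015 of Dnah9 (SD, n = 2) over all transcripts. In transcripts of 10000 bases or more, where Dnah9 had 0.28 and 0.23 TPM, Dnah5 was at 0.489 ± 0.015 of it. Dnah8 (0.45 and 0.29 TPM) and Dnah17 (0.16 and 0.18), outer arm chains of sperm, were low too. Of the inner arm chains, Dnah7a was highest at 9.79 and 11.8 TPM, then Dnah7b at 2.30 and 3.26 and Dnah2 at 1.86 and 2.05. Dnah1, at 0.83 and 0.76, and Dnah3, at 0.03 and 0.03, did not reach the threshold. Dnah14 was listed at 0 in both libraries, which by counting error alone allows up to 3 counts, or 0.119 and 0.0999 TPM. Its deposited intervals reach higher, to 0.411 and 0.349 TPM. The tables hold only short transcripts without a coding type for Dnah14.

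The level of the 4 dynein genes above 1 TPM rested on short transcripts. Transcripts of 10000 bases or more, the size that encodes a full heavy chain, existed for 13 of the 15 genes, and 0 of the 13 genes reached 1 TPM in them. Summed per gene, those long transcripts ranged from 0.03 to 0.83 TPM. For Dnah7a, a processed transcript of 732 bases in 4 exons held 9.75 and 11.7 TPM, which is 99.6% and 99.3% of the gene, from 137 and 196 counts. It begins at the 5′ end of the gene and spans 2.83% of it, and the coding transcript of 12245 bases had 0.04 and 0.09 TPM. For Dnah2, a processed transcript of 2616 bases, also from the 5′ end, held 61.2% and 54.4% of TPM. For Dnah9, a coding transcript of 2671 bases that begins 107 bases from the 5′ end held 58.2% and 60.9%. The long transcript of Dnah7b had 0.65 and 0.67 TPM. In counts the order differs, since 1022 and 1136 of the family's 1399 and 1648 counts were assigned to long transcripts.

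**Figure D4:**
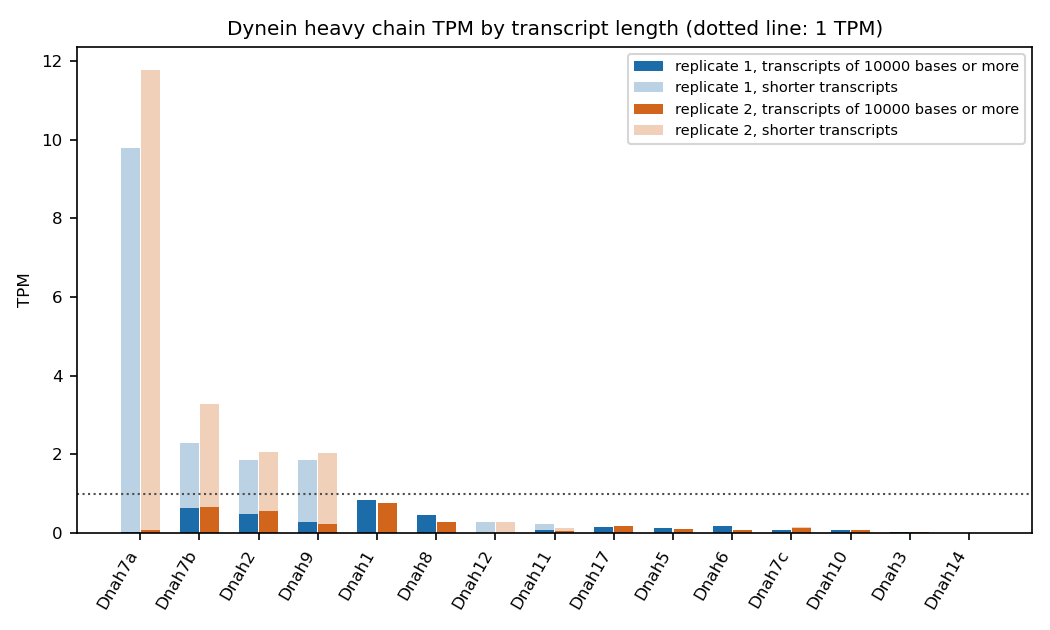
TPM of each dynein heavy chain gene in replicate 1 (blue) and replicate 2 (orange), with transcripts of 10000 bases or more in full colour and shorter transcripts stacked in pale colour; the dotted line marks 1 TPM. The pale part carries Dnah7a, Dnah7b, Dnah2 and Dnah9 over the line, and no full-colour bar crosses it.

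Dnah7a, Dnah7b and Dnah7c are near-identical copies on chromosome 1, at chr1:53397006-53706784 (minus strand), chr1:46066315-46373546 (plus strand) and chr1:46425592-46807476 (plus strand) on GRCm38. Their coding sequences were 96.8% to 97.3% identical over 12072 aligned bases. The stretch below is the first of 60 coding bases in which every pair of copies differs. Being chosen for differences, it does not give their density over the whole sequence. It comes from GENCODE M21 transcripts, at coding bases 1 to 60 of Dnah7a and Dnah7c and 133 to 192 of Dnah7b. Capitals mark the 5 columns at which the copies differ.
Dnah7a: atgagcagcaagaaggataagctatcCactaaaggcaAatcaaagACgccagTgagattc
Dnah7b: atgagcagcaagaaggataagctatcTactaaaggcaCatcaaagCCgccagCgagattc
Dnah7c: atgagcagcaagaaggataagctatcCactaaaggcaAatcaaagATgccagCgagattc
In this stretch Dnah7a and Dnah7c differ at 2 positions, and Dnah7b differs from each at 4. Of all stretches of 100 bases in their transcripts, 23.9% in Dnah7c, 19.1% in Dnah7a and 14.3% in Dnah7b also occur in another gene. With these shared stretches, the split of shared reads among the copies is uncertain. Dnah7c had 0.08 and 0.15 TPM, and the intervals deposited with these values, 0.147 to 0.894 and 0.233 to 1.00 TPM, begin above them. That feature is not particular to copies. In replicate 1 Cfap54, with 0 shared stretches, had 0.91 TPM and an interval of 1.01 to 2.07. The short transcript that carried Dnah7a holds 0 stretches of 100 bases found in another gene.

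Dnaic1 and Dnaic2, the intermediate chains that hold the outer arm together, were low but above the threshold, at 2.08 and 1.78 TPM and at 1.40 and 1.54. Their ratio (Dnaic1 over Dnaic2) was 1.32 ± 0.23 (SD, n = 2) over all transcripts and 0.768 ± 0.20 in protein-coding ones, where Dnaic1 had 1.14 and 0.78 TPM and Dnaic2 had 1.25 and 1.25, so their order is not settled. Assembly factors, which fold and assemble dynein arms in the cytoplasm, were mostly higher than the heavy chains. Cfap298 had 39.4 and 34.5 TPM, Dnaaf2 had 14.1 and 10.7, and Cfap300 had 10.8 and 11.4. Dnaaf5 followed at 3.76 and 3.22 and Dnaaf3 at 1.46 and 1.74, while Dnaaf1 stayed at 0.36 and 0.19. Other genes overlap 71.4% of the exon bases of Dnaaf2 and 53.6% of those of Cfap298, and no source used here says whether reads were counted by strand, so both values are uncertain.

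Among the 30 Cfap genes, 17 (56.7%) reached 1 TPM in both libraries, against 63.4% of all protein-coding genes. Of the other Cfap genes, 8 were under it in both and 5 were split. Cfap36, which binds the GTPase Arl3, was the highest motile member at 109 and 117 TPM, with 55.97% and 52.9% of its TPM in transcripts with a retained intron. Cfap20, a protein of the doublet microtubule junction, had 87.7 and 87.0 TPM. In protein-coding transcripts alone the order turned, with 47.9 and 55.3 TPM for Cfap36 and the same 87.7 and 87.0 for Cfap20. Cfap97 stood at 20.2 and 21.4. Proteins inside the doublet lumen otherwise ranged down from Cfap126 (5.19 and 3.60 TPM) and Cfap45 (3.52 and 3.04) to Cfap77 (0.39 and 0.40). Of 7 central apparatus genes, 3 passed, led by Cfap69 (6.38 and 5.38 TPM) and Cfap74 (3.60 and 3.56), while Cfap65 (0.36 and 0.34) and Cfap221 (0.18 and 0.21) did not. The radial spoke genes Cfap61 (2.81 and 2.22 TPM) and Cfap206 (1.83 and 1.41) passed. Cfap97d1 was listed at 0 in both libraries, which by counting error alone allows up to 3 counts, or 0.317 and 0.266 TPM. Its deposited intervals reach higher, to 0.958 and 0.812 TPM.

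Cfap43, which tethers an inner dynein, was listed at 7.21 and 3.38 TPM, but 88.5% and 86.7% of this lay in 1 transcript that M21 assigns to the neighbouring gene Itprip on chromosome 19. That transcript had 6.38 and 2.93 TPM, and all transcripts that M21 gives to Cfap43 summed to 0.83 and 0.45. Of 13622 protein-coding genes at 1 TPM in both libraries, 19 had over 50% of their TPM in a transcript of another M21 gene, and Cfap43 was the only member among them. By its own transcripts Cfap43 was thus under the threshold in both libraries. The difference of the listed entry between the libraries, 0.91 on the log2(TPM + 1) scale, is likewise that of the Itprip transcript (0.91), and was 0.34 for the transcripts of Cfap43 itself.

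Regulators of the motile programme were few. Of 9, 3 reached 1 TPM in both libraries: Rfx3 (16.7 and 15.6 TPM) and Rfx2 (3.67 and 3.16), which bind X-boxes, and Foxj1 (9.32 and 9.92). The multiciliation switches Gmnc (0.54 and 0.76 TPM) and Mcidas (0.08 and 0.07) were under it, as were Ccno (0.30 and 0.06), Deup1 (0.70 and 0.29), which amplifies centrioles, and Trp73 (0.14 and 0.03). Myb, which also marks blood precursors, had 11.3 TPM in replicate 1 and 0.65 in replicate 2, beside the thymus markers named above. Of 24 other axonemal genes, 18 passed, among them Rsph3b (42.5 and 42.1 TPM), Rsph9 (31.2 and 32.2) and Gas8 (30.4 and 27.3), whereas the central apparatus genes Hydin (0.11 and 0.08) and Spag17 (0.22 and 0.09) did not. Of 11 other docking and assembly genes, 8 passed, led by the general chaperone ATPases Ruvbl1 (89.7 and 73.6 TPM) and Ruvbl2 (86.0 and 68.5). The docking gene Armc4 gave 0.04 and 0.12 TPM, and Pih1d3 was listed at 0 in both. Of all 44 genes in these motile lists, 29 reached 1 TPM in both libraries (65.9%), against 63.4% of all protein-coding genes. The medians of the 44 genes were 3.4 TPM in replicate 1 and 2.9 in replicate 2. Those of all protein-coding genes were 6.87 and 5.50.

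Transcripts of other types took part of the TPM of many members. Among genes at 1 TPM in both libraries with at least 2 transcripts, the median share of TPM outside the gene's own protein-coding transcripts was 20.0% and 16.0% over 17 primary members, 21.2% and 21.6% over 22 motile members and 8.13% and 8.87% over 9897 protein-coding genes. By expected counts in place of TPM, the medians were 6.88% in primary and 17.1% in motile members. That share was over 50% in both libraries in 6 of 22 motile members (27.3%), in 0 of 17 primary members and in 10.4% of all such genes. The 6 were Cfap36, Cfap43, Cfap44, Dnah2, Dnah7a and Dnah7b. Counting protein-coding transcripts only, 24 of 24 primary and 19 of 51 motile members reached 1 TPM in both libraries, against 61.8% of all protein-coding genes. The 7 motile members lost in this way were Cfap43, Cfap44, Cfap46, Dnah2, Dnah7a, Dnah7b and Dnaic1.

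No member that could be called differed 2-fold in TPM + 1, while the libraries differed in the markers given above. A gene was called apart at a 2-fold difference in TPM + 1, if its mean reached 5 TPM and its summed counts 50. By this rule 0 of 30 members that could be called were apart, 20 of them primary and 10 motile, against 3.47% of 11321 protein-coding genes. In a set of 30 genes, a count of 0 is near that share and is no trait of the members. Only 10 of the 51 motile members could be called. Lower ones could differ more in plain TPM, such as Cfap53 (0.18 and 0.83 TPM, from 7 and 19 counts) and Dnah6 (0.18 and 0.07, from 50 and 23). With a pseudocount of 0.1 TPM, or at 1.5-fold, 1 of 30 was apart, against 4.02% and 7.83% of protein-coding genes. It was the entry of Cfap43, whose own transcripts summed to less than the 5 TPM the rule asks for. The median log2 ratio of replicate 1 over replicate 2 was 0.026 over 24 primary members, 0.013 over 31 motile members and 0.034 over 14591 protein-coding genes, each at 1 TPM in at least 1 library. Single members ranged from -0.82 for Cfap299 (0.52 and 1.69 TPM, from 7 and 27 counts) to 0.91 for the entry of Cfap43, which is mostly the Itprip transcript. Scaling lowered the medians of both classes and of all genes, by different amounts. With TMM the medians were -0.031 for primary members, -0.026 for motile members and 0.0058 for all. With DESeq2 size factors they were -0.042, -0.037 and -0.0051. Both class medians lay below that of all genes under each scaling, and their own sign depended on the scaling.

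**Figure D5:**
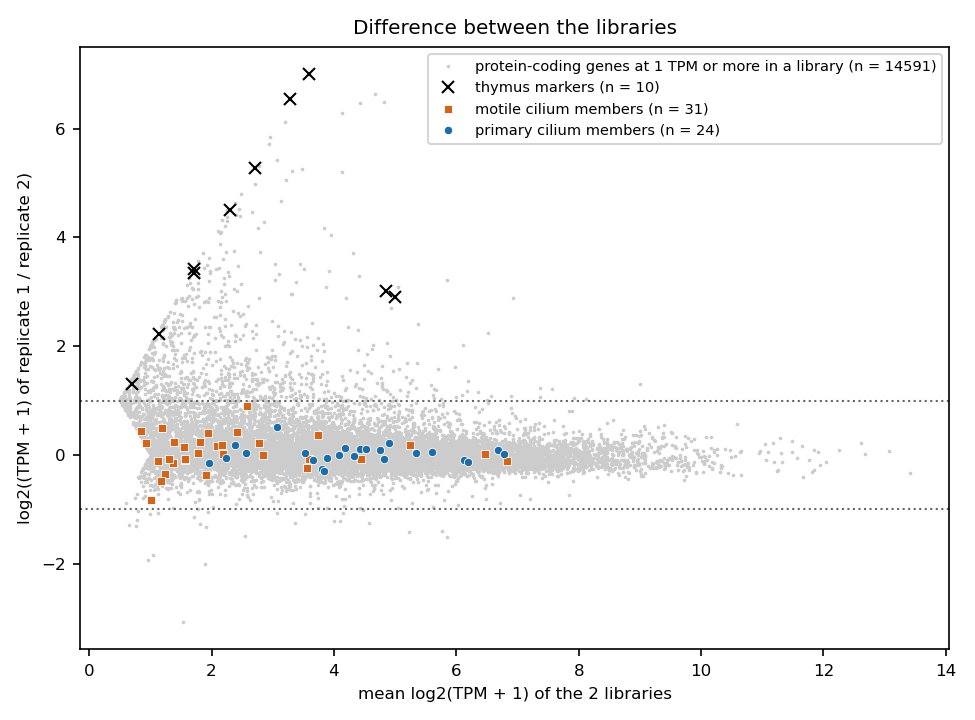
Difference between the libraries, as log2 of (TPM + 1) of replicate 1 over replicate 2, against the mean log2(TPM + 1), for protein-coding genes at 1 TPM in at least 1 library (grey), the thymus markers (crosses) and the members (coloured); dotted lines mark a 2-fold difference. All 55 members drawn lie between the lines, from -0.82 to 0.91, and the 10 thymus markers lie above them.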

How the data were processed

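Per the notes deposited with each sample, reads were assigned on build mm10 with GENCODE M4. No source used here names the aligner, the quantifier or the use of strand. Per the file headers, the authors deposited expected counts, which share ambiguous reads out by a model, TPM, FPKM (not used here), each transcript's percent of its gene's TPM, and interval bounds, a score on the TPM scale. From these, detection (1 TPM in both libraries), medians of log2(TPM + 1), library differences and transcript shares were computed with Python 3.11.15, pandas 2.3.3 and numpy 2.4.6. Symbols, types and transcript owners came from GENCODE M21, matched by identifier for 42462 of 43346 genes. One gene that follows the naming rule, Cfap99, had no row in the gene tables, and 76 genes of M21 follow it. Expected counts were rounded for TMM scaling (edgeR 4.0.16) and size factors (DESeq2 1.42.0). Depth was 34678043 and 41355355 gene counts, and limits from counts cover counting error only. On simulated data, only the 2-fold call between libraries and the X-box search were tested. For the call, changes were planted in genes of high level, with counting error as the only variation between libraries. The other steps were not simulated.

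Members, lists and roles were chosen with earlier results of these data known. Named were the 4 highest and 3 lowest genes of each family, members apart between the libraries, preset dynein genes, and the 3 highest and 2 lowest of each pathway list with all motile regulators. Other genes are named where a description needs them, chosen after their values were seen. A planned comparison of dynein proteins was replaced by one of coding sequences, since no protein table was used here. Alternatives covered thresholds, pseudocounts, scalings, posterior means, single libraries and motifs. Those with protein-coding or long transcripts only and without Cfap43 were added after the data were seen.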

Additional observations from a re-analysis of the deposited data

How the results depend on the processing

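No paired analysis was possible because the libraries form 1 group. Of 46 alternative values, 34 stayed within the spread or 1.5 times of the value reported. Single-library values of the level difference and of the transcript share could not fall outside, since their spread is that of the same 2 libraries. Replicate differences were judged by 0.12, a spread over single protein-coding genes, so a median could change sign and still count as staying. The count of 34 is therefore no measure of robustness. The primary count stayed at 24 except at 5 TPM (20). At 5 TPM the motile count fell to 9, against 50.4% of all protein-coding genes. In single libraries it was 28 (without replicate 1) and 29 (without replicate 2), and the other thresholds and units gave 19 to 33. The primary minus motile difference of 3.05 became 3.70 with a pseudocount of 0.1 TPM, 2.41 without members under 1 TPM in both libraries, 2.73 as a difference of means and 3.30 with protein-coding transcripts only. It kept its sign in every alternative tried. In single libraries it was 2.88 and 3.22. One member, Cfap43, was apart with a pseudocount of 0.1 TPM and 1, again Cfap43, at 1.5-fold, in both cases through the Itprip transcript. By expected counts in place of TPM, the median share outside coding transcripts was 6.88% in primary and 17.1% in motile members, and by posterior mean TPM it was 31.3% in motile members. Short transcripts take more TPM per count, but the cause of either change was not tested. With the single RFX site alone in place of the X-box, 10 primary and 18 motile promoters matched. With 2 libraries of 1 group, precision is limited by the number of pools. Some members under 1 TPM rest on few counts, such as 7 and 19 for Cfap53 (0.18 and 0.83 TPM). Others with long transcripts rest on more, such as 234 and 257 for Dnah1 (0.83 and 0.76 TPM).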

Other observations

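Partners in one complex could differ widely in transcript level. The kinesin-2 motor subunits Kif3a and Kif3b, which work as a pair, stood at 214 and 264 TPM for Kif3a and at 14.9 and 17.97 TPM for Kif3b, with 140 and 159 TPM of Kif3a in its protein-coding transcripts. Among the near-identical copies of one IFT-B subunit, Ttc30b had 14.2 and 14.3 TPM, Ttc30a1 had 6.07 and 6.26, and Ttc30a2 had 0.55 and 0.78, and reads of such copies may be split between them. The radial spoke copies Rsph3a and Rsph3b were listed at 27.8 and 26.4 TPM and at 42.5 and 42.1, and their reads may be split likewise. Of the ependymal markers, Tppp3 was highest at 209 and 237 TPM, while Tmem212 had 0.80 and 0.67 and Ccdc153 had 0.05 and 0. Mns1, an axonemal gene also known from meiotic germ cells, was the least even of the 24 other axonemal genes, at 10.1 and 4.88 TPM.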
